A study of Mus musculus with 5 samples.

Results

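Olig2 sites that carried acetylated lysine 27 of histone H3 (H3K27ac) in control gliomas, and at which no H3K27ac peak was listed in Olig2cKO gliomas, numbered 1356 among the 39201 Olig2 peaks of the series. Each was an Olig2 peak on chromosomes 1 to 19 that overlapped a control H3K27ac peak by at least 1 bp. It overlapped no control peak of trimethylated lysine 4 of histone H3 (H3K4me3) and no Olig2cKO H3K27ac peak. These sites, selected on the presence and absence of peaks in those lists, are called lost sites. The sites set beside them, called kept sites, met the same conditions but overlapped an Olig2cKO H3K27ac peak, and they numbered 6830. A lost site can still hold acetylation below the level at which peaks were called.

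Chromatin immunoprecipitation followed by sequencing compared mouse brain gliomas induced with a PDGFB virus, 25 days after its injection. Olig2cKO tumours carried floxed Olig2 alleles on top of the alleles of the control tumours, and the virus and floxed P53 alleles were shared by both genotypes. All animals were of mixed C57Bl/6;129Sv;CD-1 background. The labels do not give what drives recombination of the floxed alleles, how many tumours entered a library, or the age of the animals. H3K27ac and H3K4me3 were mapped in both genotypes and Olig2 in control tumours, with 1 library for each of these 5 groups. Olig2 occupancy of Olig2cKO tumours and expression of marker genes were not analysed here, so neither the loss of Olig2 nor the cell content of the tumours was checked.

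Olig2 is a basic helix-loop-helix transcription factor of oligodendrocyte precursors and motor neuron progenitors, and it is widely present in glioma. Its class of factors binds E-box elements, often within enhancers. Active enhancers typically carry H3K27ac and little H3K4me3, whereas active promoters carry both marks, which is why acetylated sites without H3K4me3 are read as candidate distal enhancers. Gene positions and sequences of the build used by the files, mm9, were not used here. The sites are therefore given by mm9 position, counted from 1, and are assigned to no gene.

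The lists held 69365 H3K27ac peaks in Olig2cKO and 56600 in control tumours, and 48885 H3K4me3 peaks in Olig2cKO and 44676 in control tumours. Each peak has a score from the authors' peak caller. The lowest score was 50 in the Olig2 list and between 50 and 50.02 in the others, where −10 times the base 10 logarithm of a p-value of 1e-05 lies. A higher score stands for a smaller p-value. Scores rank peaks inside a list and are not scaled between libraries. The read depth of the libraries is unknown. With 1 library per group, no difference between genotypes has a replicate check, and no p-value is given.

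Most acetylated distal Olig2 sites kept a listed H3K27ac peak in Olig2cKO tumours. Of 38527 Olig2 peaks on chromosomes 1 to 19, 26556 overlapped control H3K27ac, and 8186 of those overlapped no control H3K4me3. Of these 8186 sites, 1356 were lost, which is 16.6% (95% exact binomial interval 15.8 to 17.4, for counting error only). The share lost was 5.44% among acetylated Olig2 peaks that overlapped control H3K4me3 (1000 sites), and 8.87% over all acetylated Olig2 peaks. The next shares count whole control H3K27ac peaks, with or without Olig2, and not Olig2 peaks. Of those H3K27ac peaks, 17.9% had no Olig2cKO partner. The share was 26.8% for distal ones, which met no control H3K4me3 peak anywhere along their length. These shares use the same lists as the definition of the lost sites and are a description only. The Olig2cKO H3K27ac list is the longer one. With that list cut by score to the length of the control list, 1821 sites (22.2%) were lost.

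The definition looks at the Olig2 peak and not at the whole acetylated peak around it. The lost sites lay on 1349 separate control H3K27ac peaks, and 10 of these held more than 1 lost site. At 1272 lost sites (93.8%, 92.4 to 95.0), no part of the control H3K27ac peak met an Olig2cKO peak. At the other 84 sites (6.19%, 4.97 to 7.61), another part of the acetylated peak was still listed in Olig2cKO tumours. The control H3K27ac peak reached a control H3K4me3 peak beyond the Olig2 site at 84 lost sites, of which 42 were also among the 84 with a remaining partner. Altogether 1230 sites (90.7%, 89.0 to 92.2) lay on a control H3K27ac peak with neither, so the label of a distal site without listed acetylation in Olig2cKO tumours holds there for the whole acetylated peak.

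The 84 sites with a remaining partner are set apart by an Olig2cKO peak that meets the control H3K27ac peak but misses the Olig2 peak. A wide acetylated peak, an Olig2 peak off its centre and a short gap follow largely from that split, so the next values describe the 84 sites and are not findings about them. Their control H3K27ac peaks had a median width of 3083 bp against 1236 bp at the other 1272, and a median score of 248 against 114. The Olig2 centre lay in the inner 50% of the control H3K27ac peak at 25 of 84 sites (29.8%, 20.3 to 40.7), against 953 of 1272 (74.9%, 72.4 to 77.3). Their median gap to the nearest Olig2cKO peak was 306 bp, against 8278 bp. The intervals of the median Olig2 score overlapped, at 77.0 (66.1 to 83.8) against 77.5 (75.3 to 79.4).

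Sites close to the limits of the definition show how sharp it is. The lost site nearest to an Olig2cKO H3K27ac peak, on chromosome 5 from 41782527 to 41783112, touched that peak with a gap of 0 bp. The next, on chromosome 11 from 120459477 to 120459994, had a gap of 4 bp. On the other side, the kept site with the smallest overlap, on chromosome 11 from 50765911 to 50766372, shared 3 bp with an Olig2cKO peak. Few sites lay so close to the limit, since 18 lost sites had a gap of 100 bp or less and 19 kept sites an overlap of 100 bp or less. A gap of 1 kb or less was found at 132 lost sites (9.73%, 8.21 to 11.4).

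Lost sites had lower Olig2 scores than kept sites. The median Olig2 score was 77.5 at lost sites (interval 75.4 to 79.2) and 93.2 at kept sites (91.2 to 95.0), where the median over all Olig2 peaks of chromosomes 1 to 19 was 93.7. The middle 50% of scores ran from 59.6 to 110 at lost sites and from 66.6 to 149 at kept sites, so the sets overlapped widely. Scores under 100 were found at 946 lost sites (69.8%, 67.2 to 72.2) and 3727 kept sites (54.6%, 53.4 to 55.8). Scores of 500 or more were found at 8 lost sites (0.59%, 0.255 to 1.16) and 120 kept sites (1.76%, 1.46 to 2.10). Lost sites still stood above the 6571 Olig2 peaks without a mark in any histone list, whose median score was 65.7. The median Olig2 width was 730 bp at lost sites and 809 bp at kept sites. An overlap rule depends on peak width, and Olig2 score rose weakly with control H3K27ac score (Spearman rho 0.0936 at lost and 0.183 at kept sites). The Olig2 score is thus not independent of the choice of lost sites, and its difference is a description. Acetylated Olig2 peaks with control H3K4me3 that were lost had a median Olig2 score of 88.6, and their median width was 862 bp.

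**Figure D1:**
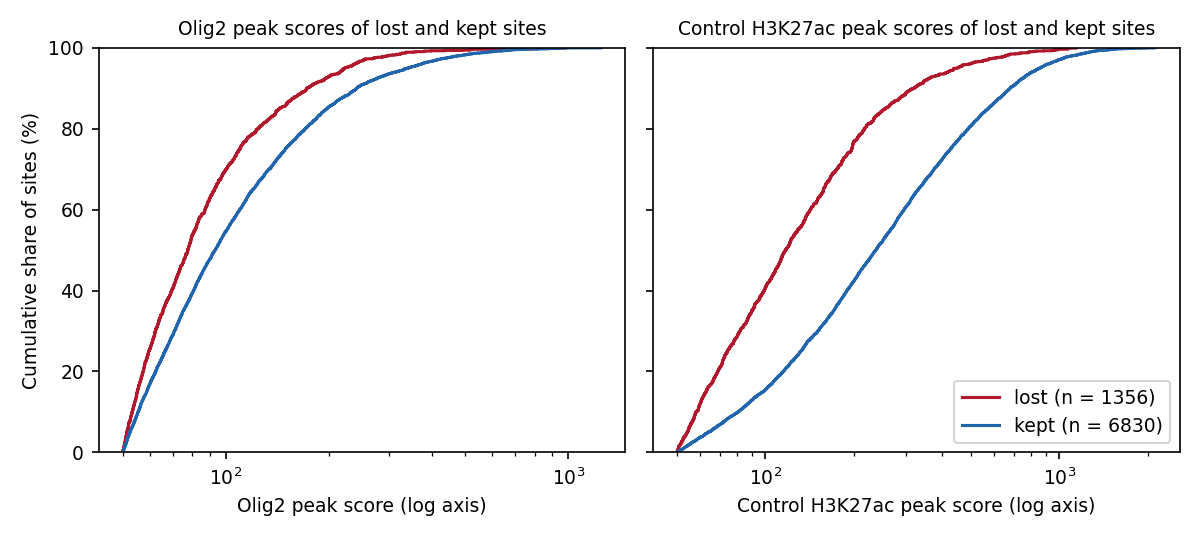
Cumulative share of sites (vertical axis, %) by Olig2 peak score (left) and by score of the overlapping control H3K27ac peak (right), both on log axes, for 1356 lost and 6830 kept sites. The lost curve lies to the left of the kept curve in both panels, with medians of 77.5 and 93.2 for Olig2 and of 117 and 238 for H3K27ac.

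The acetylated peaks at lost sites also had lower scores within the control list. The control H3K27ac score at lost sites had a median of 117 (113 to 122), against 238 (231 to 244) at kept sites. The median width of these H3K27ac peaks was 1259 bp at lost sites and 1751 bp at kept sites. Scores under 100 occurred at 553 lost sites (40.8%, 38.2 to 43.5) and 1056 kept sites (15.5%, 14.6 to 16.3), and scores of 500 or more at 53 lost sites (3.91%, 2.94 to 5.08) and 1319 kept sites (19.3%, 18.4 to 20.3). Since absence from the Olig2cKO list helped to choose the lost sites, a low control score is not independent of the choice. Distal control H3K27ac peaks without Olig2 and without an Olig2cKO partner, of which there were 6108, had a lower median score still, 79.2. An Olig2 peak lay on 1305 of 7413 distal control H3K27ac peaks without an Olig2cKO partner (17.6%, 16.7 to 18.5), against 6561 of 20234 with one (32.4%, 31.8 to 33.1). These H3K27ac peaks were not matched for score or width, so no depletion of Olig2 is read from the shares.

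The share lost fell with the control H3K27ac score and with the Olig2 score. Since the H3K27ac lists defined the lost sites, the fall with either score is a description. The falls are not ranked against each other. By the score of the control H3K27ac peak the share lost was 37.9% (34.5 to 41.3) in the lowest decile and 3.66% (2.48 to 5.19) in the highest. By Olig2 score it was 23.8% (20.9 to 26.9) in the lowest decile and 7.57% (5.85 to 9.60) in the highest. Among sites with H3K27ac peaks of like score, lost sites had the lower median Olig2 score in 9 of 10 deciles. No intervals were computed for these medians, and the differences varied in size. The median Olig2 score was 78.1 at lost and 79.7 at kept sites in decile 2. In the highest H3K27ac decile it was 86.6 at 30 lost sites and 131 at 789 kept sites. Decile 8 was the exception, with 100.1 at lost and 97.3 at kept sites.

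By width of the control H3K27ac peak the share lost was 35.0% (31.8 to 38.4) in the narrowest decile and 6.35% (4.78 to 8.24) in the eighth, but it was 16.7% (14.2 to 19.5) in the widest decile, from 3612 bp. A control H3K27ac peak of 5 kb or more was found at 85 lost sites (6.27%, 5.04 to 7.69) and 253 kept sites (3.70%, 3.27 to 4.18). The H3K27ac peaks at those 85 lost sites had a median score of 175, and 46 of them reached a control H3K4me3 peak elsewhere along their length.

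**Figure D2:**
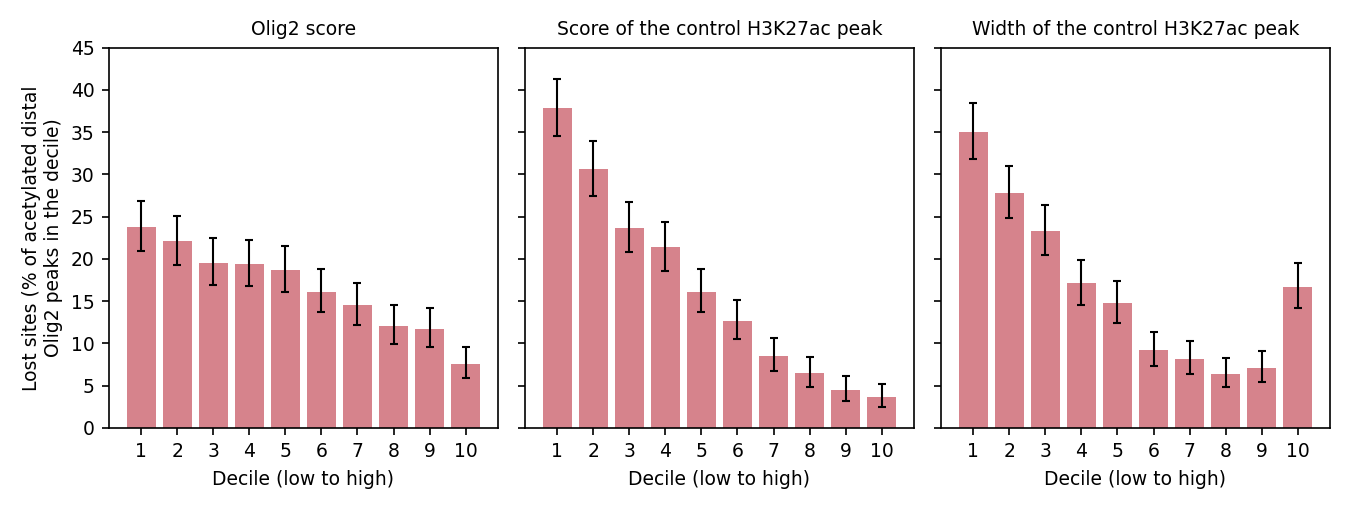
Lost sites as a percentage (vertical axis) of the acetylated distal Olig2 peaks in each decile, from low to high, of Olig2 score, control H3K27ac score and control H3K27ac width, with exact 95% binomial intervals. The share falls to 7.57% and 3.66% in the highest deciles of the scores, and turns up to 16.7% in the widest decile.

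The lost sites with the highest Olig2 scores were among the strongest Olig2 peaks of the tumours. The first, on chromosome 11 from 102864056 to 102865384, had an Olig2 score of 986, above 99.9% of Olig2 peaks. It lay on a control H3K27ac peak of 2315 bp with a score of 510, and the nearest Olig2cKO H3K27ac peak was 8244 bp away. The second, on chromosome 6 from 128299558 to 128300751, had an Olig2 score of 822 on an H3K27ac peak of score 989. It was 8617 bp from an Olig2cKO H3K27ac peak and 2882 bp from a control H3K4me3 peak. These 2 combine strong binding with strong acetylation in control tumours, which was rare among lost sites: both scores were 300 or more at 6 lost sites (0.442%, 0.163 to 0.961) and 213 kept sites (3.12%, 2.72 to 3.56). Each score was already lower at lost sites on its own, so this count is not a further trait of them.

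The other 3 of the 5 highest carried weaker acetylation. The site on chromosome 6 from 53405056 to 53405972 had an Olig2 score of 814 and a control H3K27ac score of 221. The site on chromosome 15 from 36672169 to 36673437 had scores of 813 and 233 in that order. The site on chromosome 9 from 57678697 to 57680127 had an Olig2 score of 701 and a control H3K27ac score of 116, and it lay 2864 bp from a control H3K4me3 peak. None of these 5 sites carried H3K4me3 in Olig2cKO tumours, and at all 5 the whole control H3K27ac peak lacked an Olig2cKO partner.

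**Figure D3:**
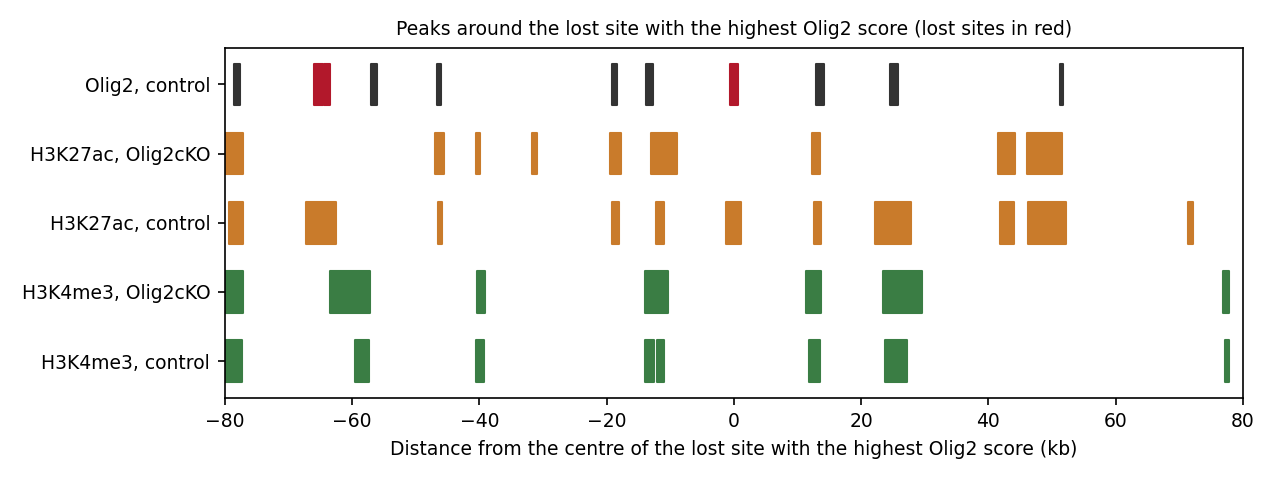
Peaks of the 5 lists within 80 kb on either side of the lost site with the highest Olig2 score, by distance from its centre in kb. Lost sites are drawn in red, other Olig2 peaks in black, H3K27ac in orange and H3K4me3 in green, and each box spans 1 peak. The window holds 9 Olig2cKO and 11 control H3K27ac peaks, and the control peaks under the red boxes have no Olig2cKO counterpart.

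The neighbourhood of the strongest lost site held 3 lost sites among 11 Olig2 peaks within 80 kb on either side. The other lost sites of that window lay side by side on a single control H3K27ac peak of 4806 bp with a score of 1069, on chromosome 11 from 102797433 to 102802238. Their Olig2 scores were 173 (102798785 to 102800219) and 235 (102800290 to 102801281), and their gaps to an Olig2cKO H3K27ac peak were 11130 and 12635 bp. Both were also among the 5 lost sites with the highest control H3K27ac score. In the same window 7 Olig2cKO and 8 control H3K4me3 peaks were listed, so marked regions lay around these 3 sites. An Olig2cKO H3K4me3 peak of score 383 reached onto the H3K27ac peak of score 1069, but met neither Olig2 site on it. No control H3K4me3 peak met that H3K27ac peak.

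The remaining lost sites with the highest control H3K27ac scores differed in how far the acetylation went. On chromosome 9 from 54451740 to 54452614 the H3K27ac score was 1146, the highest at any lost site, but the peak had an Olig2cKO partner and the gap to it was 7 bp. On chromosome 9 from 57413429 to 57414791 the H3K27ac score was 1079 and the Olig2 score 301, with no Olig2cKO peak nearer than 14951 bp. On chromosome 5 from 7655055 to 7655948 the H3K27ac score was 1069 and the Olig2 score 212, and the gap was 370429 bp. This chromosome 5 site lay 224 bp from a control H3K4me3 peak, which its H3K27ac peak reached. Another control H3K27ac peak lay 4717 bp from it. At the site with the score of 1146 the acetylated peak was still listed beside the Olig2 site. The other 2 lay on control H3K27ac peaks without any partner.

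Acetylated chromatin of Olig2cKO tumours was listed within 10 kb of most lost sites. The gap to the nearest Olig2cKO H3K27ac peak had a median of 7814 bp (7184 to 8231), with 25% of sites under 3284 bp and 25% over 17073 bp. The gap to the nearest other control H3K27ac peak had a median of 9430 bp (8809 to 10121). The Olig2cKO peak was the nearer at 771 lost sites (56.9%, 54.2 to 59.5). The site's own control H3K27ac peak is left out of the control gap, whereas Olig2cKO peaks on it count at 84 sites, which favours the Olig2cKO side by construction. Without those sites the share was 54.2% (51.5 to 57.0) of 1272. With the Olig2cKO list cut by score to the length of the control list, an alternative chosen after the data were seen, it was 48.97% (46.3 to 51.7) of the 1356 sites, with median gaps of 9638 bp to Olig2cKO and 9430 bp to other control peaks. With both changes it was 46.4% (43.6 to 49.2). Which of the gaps was shorter thus turned with the length of the list, and no order is read from them. Within 10 kb an Olig2cKO H3K27ac peak lay at 808 lost sites (59.6%, 56.9 to 62.2), and an Olig2cKO peak without a control partner at 300 lost sites (22.1%, 19.9 to 24.4) and 1427 kept sites (20.9%, 19.9 to 21.9). Those last intervals overlap, and a difference in new acetylation nearby between lost and kept sites was not tested.

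**Figure D4:**
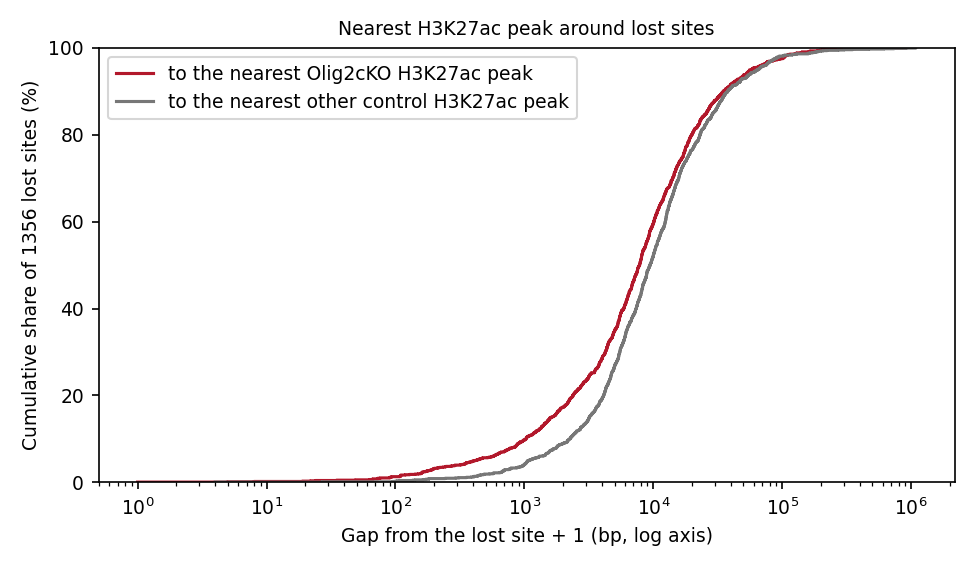
Cumulative share of the 1356 lost sites (vertical axis, %) by gap in bp plus 1, on a log axis, to the nearest Olig2cKO H3K27ac peak (red) and to the nearest control H3K27ac peak other than their own (grey). The medians are 7814 bp (red) and 9430 bp (grey) with the full lists, and 9638 and 9430 bp with lists of equal length, which are not drawn.

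A small number of lost sites lay far from any acetylated region of Olig2cKO tumours, with gaps over 100 kb at 34 sites (2.51%, 1.74 to 3.49). The largest gap, 910272 bp, belonged to the site on chromosome 14 from 95201837 to 95202322, with an Olig2 score of 56.7 on a control H3K27ac peak of score 549. The next, 481556 bp, belonged to chromosome 1 from 8090049 to 8090535, with scores of 63.8 and 345 in the same order. These sites lay 553679 and 700861 bp from a control H3K4me3 peak, and the nearest other control H3K27ac peak was 910474 and 35274 bp away, so the first was isolated in control tumours too. The third was the site on chromosome 5 given above, which lay only 224 bp from a control H3K4me3 peak. The fourth, on chromosome 4 from 21094535 to 21095564, had a gap of 322924 bp, an Olig2 score of 129 and an H3K27ac score of 354. The fifth, on chromosome 3 from 140115457 to 140116079, had a gap of 300725 bp, an Olig2 score of 80.1 and an H3K27ac score of 343. The nearest other control H3K27ac peak was 81685 bp from the fourth and 301011 bp from the fifth, so the fifth was isolated in control tumours as well. At all 5 the whole control H3K27ac peak lacked a partner.

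The Olig2cKO H3K4me3 list was not used in choosing the sites, but the Olig2cKO H3K27ac list was. Active promoters carry both marks, so H3K4me3 at lost and kept sites is not independent of the choice. An Olig2cKO H3K4me3 peak overlapped 112 lost sites (8.26%, 6.85 to 9.85) and 1437 kept sites (21.04%, 20.1 to 22.0), against 18.9% over all acetylated distal Olig2 peaks and 14.6% over all Olig2 peaks without control H3K4me3. The share was lower at lost sites in 10 of 10 deciles of control H3K27ac score. In the lowest decile it was 9.35% (6.35 to 13.2) of 310 lost sites and 18.7% (15.4 to 22.3) of 509 kept sites. In the highest it was 6.67% (0.818 to 22.1) of 30 lost sites and 23.2% (20.3 to 26.3) of 789 kept sites, where the intervals overlap. When kept sites were weighted to the H3K27ac score and width deciles of the lost sites, 20.8% of them carried Olig2cKO H3K4me3. The difference was thus of similar size among acetylated peaks of like control score and width. That matching used control values only and leaves the split by Olig2cKO H3K27ac in place. The cause of the difference was not tested.

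**Figure D5:**
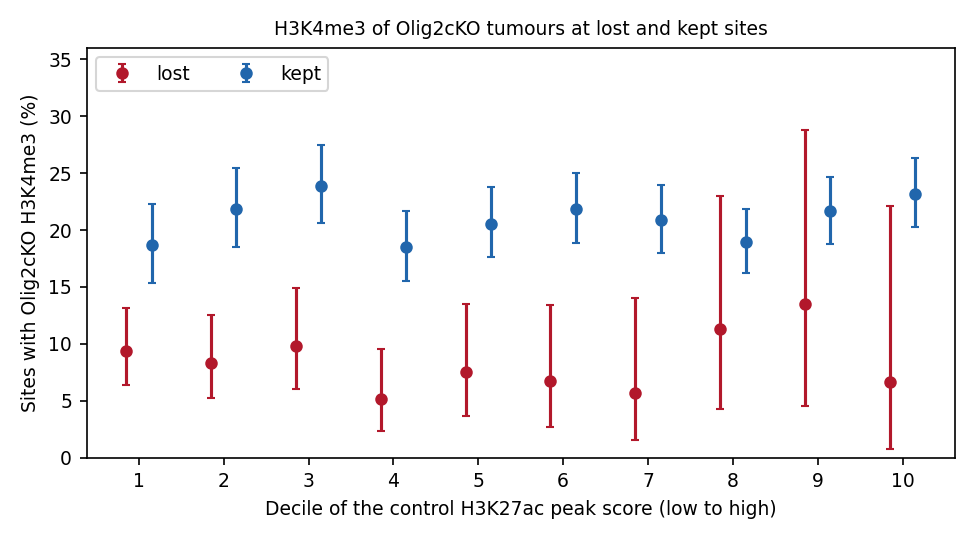
Share of sites that overlap an Olig2cKO H3K4me3 peak (vertical axis, %) by decile of control H3K27ac score, from low to high, for lost and kept sites, with exact 95% binomial intervals. The lost point lies below the kept point in all 10 deciles, and the intervals overlap in the highest 3.

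This difference depended on how much overlap counts. When each overlap had to cover at least 50% of the shorter peak, 1831 sites were lost and 22.8% of them carried Olig2cKO H3K4me3, against 22.4% of kept sites. That setting admits sites whose edge touches a control H3K4me3 peak, and 458 of the 1831 did so. Without those, the shares were 7.28% of 1373 lost sites and 19.5% of 6589 kept sites. With peaks up to 1 kb apart counted as overlapping in the control H3K4me3 and Olig2cKO H3K27ac lists, which removes sites at the edge of H3K4me3, the shares were 6.24% and 20.1%.

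The H3K4me3 peaks listed at lost sites in Olig2cKO tumours were mostly weak, with a median score of 91.6 at lost and 101 at kept sites, where the median of the list on chromosomes 1 to 19 was 328. At 26 of the 112 lost sites (23.2%, 15.8 to 32.1) the same H3K4me3 peak also overlapped a control H3K4me3 peak next to the site, against 103 of 1437 kept sites (7.17%, 5.89 to 8.63). The strongest cases were of this bordering kind. The site on chromosome 2 from 69734874 to 69735692 met an Olig2cKO H3K4me3 peak of score 2328 and lay 51 bp from control H3K4me3. The site on chromosome 7 from 36587694 to 36588459 met one of score 2316 and lay 4 bp from control H3K4me3, the smallest such gap of any lost site. On chromosome 2 from 5816228 to 5816825 the score was 1917 and the gap to control H3K4me3 75 bp. Short gaps were also found on chromosome 19 from 4396773 to 4398028 (1867 and 49 bp) and on chromosome 11 from 117670716 to 117671431 (1722 and 6 bp). On chromosome 19 the control H3K27ac peak, 440 bp wide, had no Olig2cKO partner and met no control H3K4me3 peak. At the other sites named here it had a partner and reached control H3K4me3. All 5 lay 176 bp or less from an Olig2cKO H3K27ac peak, so they sat at the border of regions marked in both genotypes.

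The H3K4me3 region nearest to a site served as a stand-in for the closest promoter, since genes were not assigned. The gap to the nearest control H3K4me3 peak had a median of 13746 bp (12807 to 14640) at lost sites and 14728 bp (14190 to 15243) at kept sites. A control H3K4me3 peak lay within 10 kb at 542 lost sites (39.97%, 37.4 to 42.6) and 2540 kept sites (37.2%, 36.04 to 38.3). The intervals of lost and kept sites overlapped in both measures.

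Acetylation at that nearest H3K4me3 peak was less often listed in Olig2cKO tumours when the distal site was lost. The Olig2cKO H3K27ac list used here also defined the lost sites, so the comparison is a description only. Sites whose own H3K27ac peak reached H3K4me3 were left out, and nearest H3K4me3 peaks with control H3K27ac were counted. Of these, 746 of 858 next to lost sites (86.9%, 84.5 to 89.1) and 4067 of 4466 next to kept sites (91.1%, 90.2 to 91.9) also carried Olig2cKO H3K27ac. The share over all control H3K4me3 peaks with control H3K27ac was 89.9%. Within 10 kb of the site the shares were 83.9% (79.4 to 87.8) for lost and 89.5% (87.7 to 91.0) for kept sites, and beyond 10 kb they were 88.7% (85.7 to 91.2) and 91.8% (90.8 to 92.8). For H3K4me3 peaks with a control H3K27ac score of 300 or more the shares were 94.4% (91.8 to 96.4) and 97.3% (96.5 to 97.9), and for lower scores 79.5% (75.4 to 83.2) and 84.1% (82.4 to 85.6). The order was the same in each of these 4 classes, which split the same peaks by distance and again by score and are not separate checks. The intervals of lost and kept sites overlapped in 3 of them and were apart for scores of 300 or more. H3K4me3 itself was listed in Olig2cKO tumours at the nearest control H3K4me3 peak for 88.9% (87.1 to 90.6) of lost and 89.7% (88.9 to 90.4) of kept sites. Those intervals overlap, and overlap of intervals is not a test of a difference. Neighbouring sites can share the same nearest H3K4me3 peak, so these counts are not independent.

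Lost and kept sites were both mostly single. Another lost site lay within 10 kb at 50 of the 1356 lost sites (3.69%, 2.75 to 4.83), in 22 pairs and 2 groups of 3, and another kept site at 931 of the 6830 kept sites (13.6%, 12.8 to 14.5), of which there are more. Any other acetylated distal Olig2 peak lay within 10 kb at 165 lost sites (12.2%, 10.5 to 14.0) and 1036 kept sites (15.2%, 14.3 to 16.0). Where an acetylated distal Olig2 peak had another within 10 kb, that neighbour was lost in 56 of 186 cases (30.1%, 23.6 to 37.2) next to a lost site and in 130 of 1116 cases (11.6%, 9.82 to 13.7) next to a kept site, beside 16.6% over all such peaks. The counts use the same lists as the definition, each pair enters from both sides, and neighbours can lie on a single H3K27ac peak. Of the 1349 control H3K27ac peaks with a lost site, 48 held more than 1 Olig2 peak. Among these, 10 held more than 1 lost site and 5 held a kept site as well.

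The larger of the groups by number lay on chromosomes 12 and 15. The group on chromosome 12 from 39504597 to 39515729 held 3 lost sites on 2 control H3K27ac peaks with scores of 345 and 457, and neither an Olig2cKO H3K27ac peak nor H3K4me3 of either genotype was listed between its ends. Its Olig2 scores ran from 53.9 to 149. The group on chromosome 15 from 38718715 to 38726263 held 3 lost sites on a single control H3K27ac peak of score 57.3, with 1 H3K4me3 peak in each genotype. These 2 groups differ in the strength of control acetylation, which was above the kept median on chromosome 12 and near the lowest score of the list on chromosome 15.

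Of the pairs, the 3 with the highest Olig2 scores spanned 2.46 to 7.24 kb. The pair on chromosome 8 from 123988828 to 123992577 reached an Olig2 score of 326 on control H3K27ac peaks of scores 64.5 and 80.8. The pair on chromosome 2 from 166470236 to 166472692 reached 292 on a single H3K27ac peak of score 215, with 1 Olig2cKO H3K4me3 peak. The pair on chromosome 13 from 34330272 to 34337510 reached 287 on H3K27ac peaks of scores 113 and 137, with 2 Olig2cKO H3K4me3 peaks and none in control tumours. No Olig2cKO H3K27ac peak was listed between the ends of any of these 3 pairs.

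Lost sites were spread over all 19 chromosomes in proportion to the acetylated distal Olig2 peaks. The share lost ran from 14.0% (9.93 to 19.1) of 242 sites on chromosome 19 to 18.2% (14.9 to 22.0) of 477 sites on chromosome 6. The interval of each of the 19 chromosomes included the share over all of them.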

How the data were processed

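Each file the authors deposited is the peak list of 1 library and gives the position and score of each peak. CASAVA, Bowtie2 and MACS are named for build mm9, per the submitters' processing notes. Versions, settings and the use of an input library are not given in the sources used here. The read depth is unknown. Positions in the lists count from 0 and were written from 1.

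Overlaps of at least 1 bp (Python 3.11.15, numpy 2.4.6, pandas 2.3.3) were checked against bedtools 2.31.1 on 3 lists, with 0 sites that differed, and tested on simulated lists. Where a site met several control H3K27ac peaks, the one with the highest score was used. Shares carry exact (Clopper-Pearson) 95% binomial intervals and medians the exact binomial interval of their order statistics (scipy 1.17.1). Neighbouring sites are not independent, and no test was made. Deciles were formed over the 8186 acetylated distal Olig2 peaks. Figures were drawn with matplotlib 3.10.9.

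The members, the comparisons and the rule for named sites were chosen with earlier results of these data known. Named sites are the 5 highest by Olig2 score, by control H3K27ac score, by gap to Olig2cKO H3K27ac and by Olig2cKO H3K4me3 score, the 5 groups with most lost sites within 10 kb (ties by highest Olig2 score), and the sites next to the limits. The splits by H3K27ac score at 300, by host width and by distance of 10 kb to H3K4me3 were chosen after values were seen. The planned E-box and GC counts and gene lists, which need mm9 sequence and gene positions, were not run. Part of the genotype that both groups share is not reported here.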

Additional observations from a re-analysis of the deposited data

How the results depend on the processing

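No paired analysis was possible because each group had 1 library and the result comes from no test. Of the values recomputed under other settings, 35 stayed within 1.5 times the main count or inside the main interval and 32 did not. The number of lost sites was 468 with the upper 50% of Olig2 peaks by score and 401 with the upper 50% of control H3K27ac peaks, since fewer peaks enter; it was 1186 to 1831 under the other settings. The share lost was 20.6% with an overlap of at least 50% of the shorter peak, 15.3% with peaks up to 1 kb apart counted as overlapping, 12.1% with the upper 50% of Olig2 peaks, 8.49% with the upper 50% of control H3K27ac peaks, 22.2% with the Olig2cKO H3K27ac list at the length of the control list, 18.7% without H3K4me3 in either genotype, and 15.5% where the whole control H3K27ac peak had to lack a partner. The median gap to an Olig2cKO H3K27ac peak was 4427 bp at 50% overlap, 8820 bp at 1 kb, 8503 bp with the upper control peaks, 9266 bp at equal list length and 8278 bp with the whole peak lost. The median Olig2 score was 82.7 at 50% overlap, 135 with the upper Olig2 peaks and 81.9 with the upper control H3K27ac peaks, and the median H3K27ac score was 142, 129 and 258 under those settings. The median Olig2 score of kept sites was higher than that of lost sites under each of the 8 settings. These settings recut the same peaks, still split by the Olig2cKO H3K27ac list, and are not separate checks. The share whose whole H3K27ac peak lacked a partner was 71.7% at 50% overlap, 96.1% at 1 kb, 86.8% with the upper control peaks, 95.3% at equal list length and, by construction, 100% with the whole peak lost. The share with Olig2cKO H3K4me3 was 22.8% at 50% overlap (kept sites 22.4%), 6.24% at 1 kb (20.1%), 10.7% with the upper Olig2 peaks (24.0%), and, by construction, 0.0% without H3K4me3 in either genotype. With the upper Olig2 peaks, 2.56% of lost sites lay within 10 kb of another. The share of lost sites nearer to an Olig2cKO than to another control H3K27ac peak was 56.9%, and 46.4% to 54.2% under the alternatives chosen after the data were seen. None of these settings tested a cause. The E-box and GC alternatives were not run. The depth of the libraries is unknown, and its part in these values was not tested.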

Other observations

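Olig2 and H3K27ac peaks had similar outlines more often at lost than at kept sites. Both edges lay within 300 bp of each other at 366 lost sites (26.99%, 24.6 to 29.4) and 1097 kept sites (16.1%, 15.2 to 17.0), where H3K27ac peaks were wider. The Olig2 peak lay wholly inside the control H3K27ac peak at 889 lost sites (65.6%, 63.0 to 68.1) and 5457 kept sites (79.9%, 78.9 to 80.8). The number of Olig2 peaks per acetylated peak differed little. More than 1 Olig2 peak lay on 48 of 1349 control H3K27ac peaks with a lost site (3.56%, 2.63 to 4.69) and on 267 of 6765 with a kept site (3.95%, 3.50 to 4.44).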
